A study of Mus musculus with 8 samples.

Results

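The 10 genes described here encode plakophilins (Pkp1, Pkp2, Pkp3 and Pkp4), partners in the desmosome (Dsp, Jup, Dsc2, Dsg2 and Perp) and a neuronal catenin (Ctnnd2). They were chosen by name, after Pkp2 had been seen to differ between mutant and control pups in these same arrays, and each was read from a probe set naming no other gene. All 10 were found among 19938 genes with such a probe set, and each had exactly 1, so that the measured level never had to decide between probe sets. Because results of the same comparison led to the choice, the difference of Pkp2 is given as a description and supports nothing.

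Desmosomes are spot-like junctions that tie neighbouring cells together and anchor their intermediate filaments, and they are best known from epidermis and heart muscle. Desmosomal cadherins (desmogleins and desmocollins) span the gap between cells, the armadillo-repeat proteins plakoglobin and plakophilin bind the cadherin tails, and desmoplakin links this plaque to keratin or desmin filaments. Neurons of the cortex hold adherens junctions instead, built from classical cadherins and catenins of the p120 family, to which Pkp4 and Ctnnd2 also belong.

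Gene expression was measured on Affymetrix Mouse Gene 1.0 ST arrays in neocortical layers II-IV, cut out by laser, from 8 mouse pups at postnatal day 5. The 4 pups labelled Bcl6 mutant were Bcl6 flox/flox with Nex Cre/+, and the 4 labelled Bcl6 control were Bcl6 flox/flox with Nex +/+. Both groups therefore carried floxed Bcl6, a zinc-finger transcriptional repressor gene, and only mutants carried Cre in the Nex (Neurod6) locus, which is active in excitatory neurons, so that other cell types of the tissue are not expected to make Cre. Per the series title the work concerned the death of cortical projection neurons during development. The captured tissue is a mixture of cells, in which fewer cells of a type and less RNA per cell cannot be told apart.

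The labels were checked on the targeted genes. The Bcl6 probe set read 6.61, 6.76, 6.96 and 6.78 (log2) in mutant replicates 1 to 4 and 6.55, 6.58, 6.25 and 6.23 in control replicates 1 to 4. It was thus not lower in the arrays labelled mutant, where every value lay above the controls, and no source used here says which of its probes the deletion would remove. Below, "mutant" means the arrays labelled so. Neurod6 averaged 8.83 ± 0.17 in mutants and 9.22 ± 0.13 in controls (SD, n = 4 each). Mutant replicates 1 and 4 had high signal of Xist, the RNA that silences an X chromosome (9.78 and 9.76), and the other 6 arrays lay between 2.64 and 3.41, so the sexes of the pups were unevenly spread over the groups. All 9 excitatory neuron markers tested, among them Slc17a7, Cux2 and Rorb, lay above the array floor on every array.

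The deposited table has no detection calls, so levels were set against an array floor made of genes that the cortex is taken not to express. On each array the floor was the 95th percentile of 1015 olfactory receptor genes, which lay between 4.28 and 4.33 on the log2 scale. A second set of 19 genes of other tissues, such as liver Alb and sperm Prm1, gave a higher mark, with a median of 4.41 to 4.57 and a 95th percentile of 5.43 to 5.81. Probe sets differ in how strongly they bind and in stray signal, so a value above the first mark does not by itself show a transcript, and the 10 genes are not ranked against each other. Above the olfactory receptor mark on all 8 arrays lay 6 of the 10 genes, namely Pkp1, Pkp3, Pkp4, Jup, Perp and Ctnnd2, against 65.9% of all genes. Only Pkp4, Jup and Ctnnd2 also cleared the mark of the other-tissue genes on every array. Dsc2 and Dsg2 lay below the olfactory receptor mark on all 8 arrays, while Pkp2 and Dsp were above it on some arrays only.

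**Figure D1:**
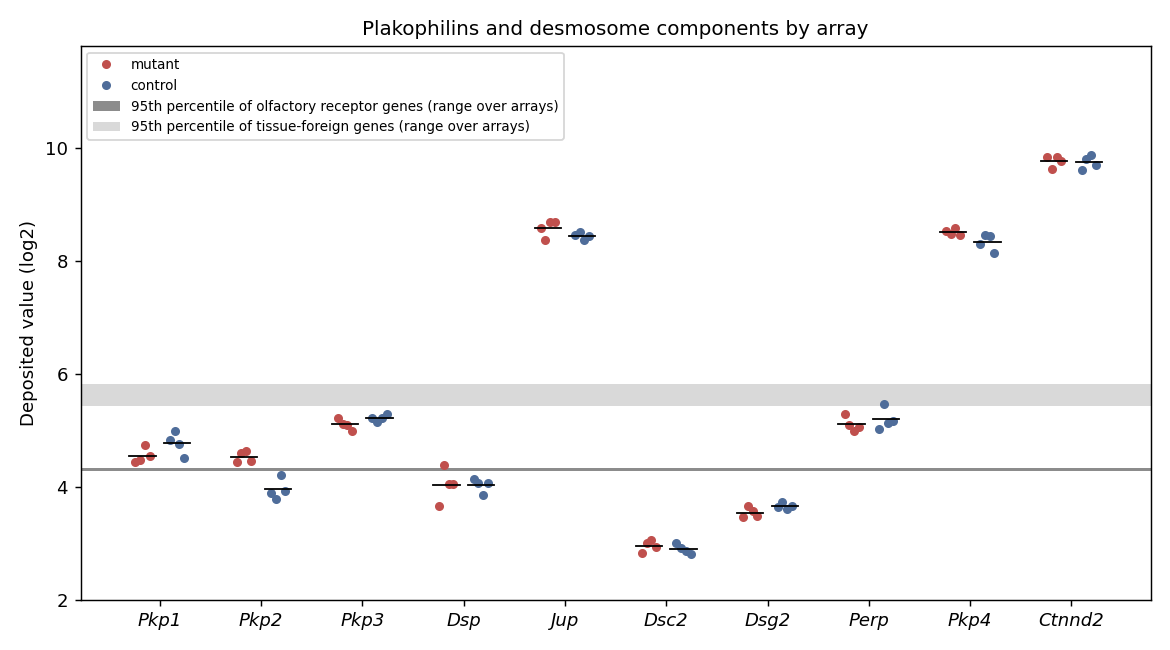
Deposited log2 values (y axis) of the 10 genes (x axis), with a point per array, 4 mutant pups in red left of 4 control pups in blue, and a bar for each group mean. Grey bands are the ranges over arrays of the 95th percentile of olfactory receptor genes (dark) and of genes of other tissues (light). Pkp4, Jup and Ctnnd2 lie far above both bands, and the other 7 genes lie within or below the light one.

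Among the desmosomal plakophilins, Pkp2 was the gene that differed most. Its protein is the plakophilin of heart muscle and of simple epithelia, where it recruits desmoplakin to the plaque. It read 4.43, 4.60, 4.63 and 4.46 (log2) in mutant replicates 1 to 4, against 3.88, 3.79, 4.20 and 3.93 in control replicates 1 to 4. Every mutant value lay above every control value, with a gap of 0.23 between the closest pair, and the highest control was replicate 3. The means were 4.53 ± 0.10 in mutants and 3.95 ± 0.18 in controls (SD, n = 4 each), a difference of 0.58 ± 0.091 (SE; 95% interval 0.39 to 0.78), or 1.50-fold (1.31 to 1.72). Over the 19938 genes limma gave it an adjusted p of 0.0451, which is the value that brought these genes into view.

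Mutant and control values of Pkp2 lay on opposite sides of the array floor set by olfactory receptor genes, but not of the other marks. All 4 mutant arrays read above the olfactory receptor mark and all 4 control arrays below it, on average 0.23 above in mutants and 0.36 below in controls. Of the olfactory receptor genes, 97.2% had a lower mean than Pkp2 in mutants and 90.7% in controls. On all 8 arrays Pkp2 lay below the mark of the other-tissue genes. Of those 19 genes, 9 had a higher mean than Pkp2 in mutants and 13 in controls. The 95th percentile of vomeronasal receptor genes, 3.56 to 3.81 over arrays, lay below all mutants and also below control replicates 1, 3 and 4. Control replicate 2, at 3.79, lay within that range. The fold is therefore one between deposited signals near the floor and not a measure of how far the transcript itself changed. Pkp2 was the only gene of the 13 past the threshold of 0.05 whose mean over the 8 arrays, 4.24, was below the floor taken over such means, 4.29.

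**Figure D2:**
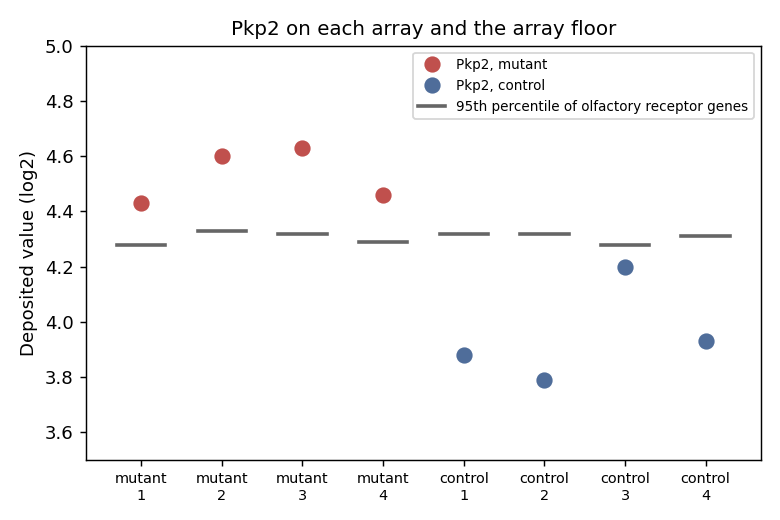
Deposited log2 value of Pkp2 (y axis, starting at 3.5) on each of 4 mutant (red) and 4 control (blue) arrays, with a grey bar for the 95th percentile of olfactory receptor genes on the same array. Mutant points, 4.43 to 4.63, lie above their bars, and control points, 3.79 to 4.20, lie below theirs.

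The size of the Pkp2 difference varied little with the arrays used, while its call was lost in most of the fits that left out an array. Leaving out 1 array at a time gave differences between 0.53 and 0.67, and Pkp2 passed the threshold in 1 of these 8 fits, the one without control replicate 3 (adjusted p = 0.0139 in limma). In the other 7 fits, without control replicates 1, 2 or 4 or any of the mutant replicates, the call was lost, with an adjusted p of up to 0.233. The 2 mutants with high Xist read 4.45 on average and the other 2 mutants 4.62, against 3.95 in the controls, none of which had high Xist. Without those 2 mutants the difference was 0.67 ± 0.11 (SE; adjusted p = 0.313 in limma), and the part of sex in it was not tested. Quantile normalization gave 0.61 (adjusted p = 0.0644 in limma), and keeping only genes above the floor removed Pkp2 from the test.

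**Figure D3:**
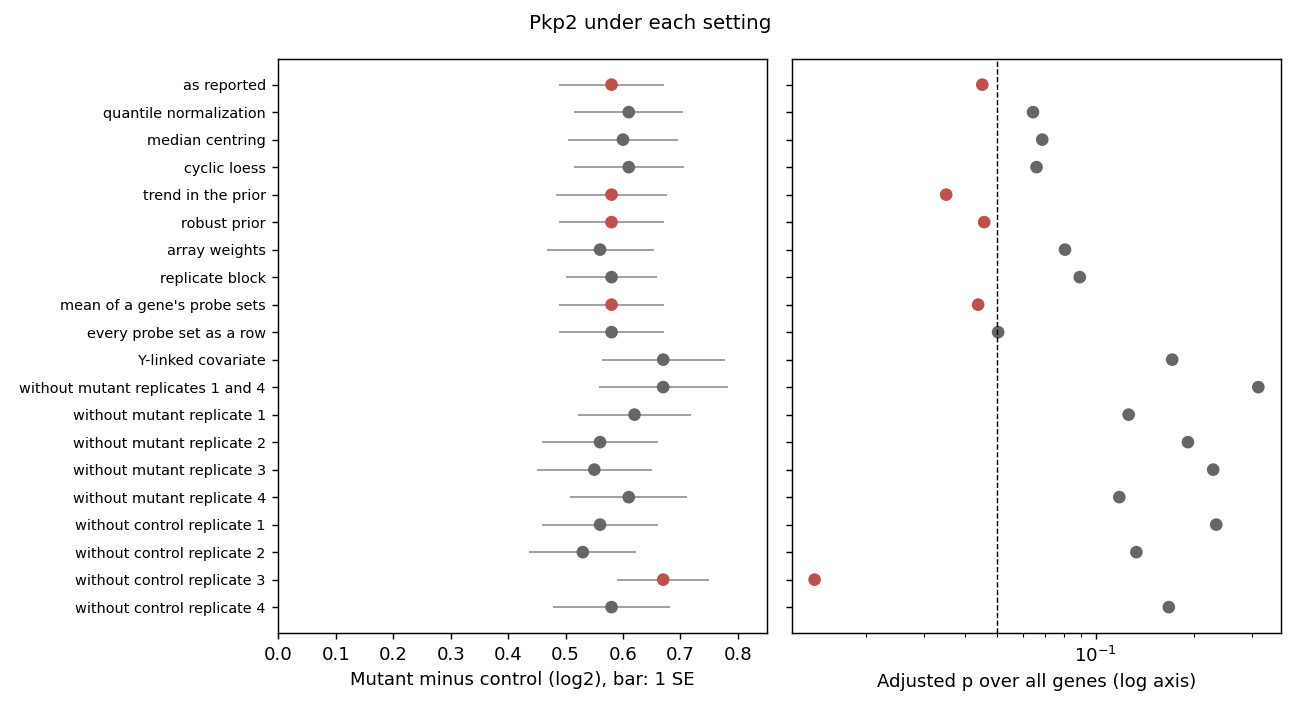
Pkp2 difference between mutant and control arrays (left, log2, bars 1 SE) and its adjusted p over all genes (right, log axis, dashed line at 0.05) under each setting (y axis), red where it passed. The differences stay between 0.53 and 0.67, and 4 of the 19 alternatives pass.

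Pkp1 and Pkp3 had lower means in mutants, and neither passed the test. Pkp1, the plakophilin of stratified epithelia, read 4.43, 4.47, 4.73 and 4.55 in mutants and 4.82, 4.98, 4.75 and 4.51 in controls. The groups overlapped through control replicate 4, and the difference was -0.22 ± 0.10 (SE; 95% interval -0.43 to -0.0045; adjusted p = 0.9995 in limma). Pkp3, which is found in most epithelia, read 5.22, 5.11, 5.09 and 4.99 in mutants and 5.21, 5.15, 5.22 and 5.29 in controls. Mutant replicate 1 lay among the controls and the other 3 mutants below them, for a difference of -0.12 ± 0.069 (interval -0.27 to 0.03).

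The plaque proteins Dsp and Jup differed in how they stood to the floor. Dsp encodes desmoplakin, the link to intermediate filaments without which a desmosome does not form. It read 3.66, 4.39, 4.05 and 4.05 in mutants and 4.14, 4.07, 3.86 and 4.06 in controls, and only mutant replicate 2 lay above the olfactory receptor mark. Mutants spread more widely than controls, and the controls lay wholly within their range. The difference was 0.01 ± 0.13 (SE; 95% interval -0.27 to 0.28), an interval of deposited signal that does not bound a change in the transcript. Jup encodes plakoglobin, which serves adherens junctions as well as desmosomes and is close kin to beta-catenin. It read 8.57, 8.37, 8.69 and 8.69 in mutants and 8.46, 8.51, 8.37 and 8.44 in controls, on average 4.27 and 4.14 above the floor. Of the mutants 3 lay above all controls and replicate 2 at their lower end, and the difference was 0.14 ± 0.080 (interval -0.04 to 0.31; adjusted p = 0.9995 in limma).

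The promoters of Jup and Dsp are printed because Jup lay above the floor on every array and Dsp on mutant replicate 2 only. The windows run from 250 bases before to 50 after the RefSeq start in GRCm38.p6, with CG dinucleotides in capitals. The Jup window lies at chr11:100397741-100398040 on the minus strand and holds 14 of them, and the Dsp window lies at chr13:38151044-38151343 on the plus strand and holds 27. The median over 32851 such windows was 7, below both counts. Whether CG content bears on the levels of these genes was not tested.
Jup: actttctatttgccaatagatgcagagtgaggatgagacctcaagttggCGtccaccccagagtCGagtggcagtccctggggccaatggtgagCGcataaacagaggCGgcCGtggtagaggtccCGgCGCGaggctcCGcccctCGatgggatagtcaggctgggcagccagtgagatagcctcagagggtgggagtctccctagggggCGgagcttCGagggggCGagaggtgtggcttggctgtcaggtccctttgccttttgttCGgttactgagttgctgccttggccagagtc
Dsp: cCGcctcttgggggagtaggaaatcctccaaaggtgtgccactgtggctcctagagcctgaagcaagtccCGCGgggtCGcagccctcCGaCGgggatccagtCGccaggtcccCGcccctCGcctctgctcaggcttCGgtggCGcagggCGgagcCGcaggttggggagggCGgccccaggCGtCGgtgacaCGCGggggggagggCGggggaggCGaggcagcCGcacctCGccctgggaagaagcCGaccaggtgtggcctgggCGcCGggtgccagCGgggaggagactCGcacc

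A core shared by BCL6 and STAT binding motifs, TTCNNNGAA, which reads the same on both strands, was searched in the windows of these genes. Only 4 of the 10 had a window, with 5 windows among them (Jup, Dsp, Ctnnd2 and both starts of Pkp4), and 0 held the core, against 8.30% of all windows. That says only that these letters are not in these windows.

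Of the transmembrane members, Dsc2 and Dsg2 lay below the floor in both genotypes and Perp above it. Dsc2 and Dsg2 encode the desmocollin and desmoglein found in nearly every tissue with desmosomes. Dsc2 read 2.82, 3.01, 3.05 and 2.94 in mutants and 3.0, 2.91, 2.86 and 2.81 in controls, with overlapping groups and a difference of 0.06 ± 0.073 (SE; 95% interval -0.10 to 0.22). Dsg2 read 3.46, 3.66, 3.57 and 3.48 in mutants and 3.64, 3.73, 3.60 and 3.66 in controls, with 3 of the 4 mutants below all controls. Its difference was -0.12 ± 0.068 (interval -0.26 to 0.03). Dsc2 lay 1.35 and Dsg2 0.76 below the floor in mutants, and 1.41 and 0.65 below it in controls (means over arrays). At such levels these arrays can neither show nor deny a small amount of transcript of Dsc2 or Dsg2. Perp, a tetraspan membrane protein of desmosomes that is also a p53 target, read 5.28, 5.09, 4.99 and 5.06 in mutants and 5.02, 5.46, 5.13 and 5.16 in controls. Its groups overlapped, the difference was -0.09 ± 0.10 (interval -0.30 to 0.12), and the highest value belonged to control replicate 2. It lay on average 0.80 above the olfactory receptor mark in mutants and 0.88 above it in controls.

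Pkp4 and Ctnnd2, of the p120 catenin family, lay well above the floor. Pkp4, also called p0071, sits at both adherens junctions and desmosomes. It read 8.52, 8.48, 8.58 and 8.45 in mutants and 8.29, 8.45, 8.43 and 8.13 in controls. The groups did not overlap, by a margin of 0.01, and control replicate 4 lay lowest. The difference was 0.19 ± 0.078 (SE; 95% interval 0.02 to 0.35), or 1.14-fold, with an adjusted p of 0.988 in limma, so it did not pass over all genes. It kept its sign in all 8 fits leaving out 1 array, between 0.12 and 0.23. Ctnnd2 encodes delta-catenin, a neuronal catenin of dendrites and synapses. It read 9.83, 9.63, 9.83 and 9.76 in mutants and 9.61, 9.80, 9.87 and 9.70 in controls, fully overlapping, with a difference of 0.02 ± 0.076 (interval -0.15 to 0.18), or at most 1.14-fold higher at the upper end.

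Of the 10 genes 1 was called higher in mutants, Pkp2, against 0.0502% of all genes called higher, and 0 were called lower, against 0.015% (limma, adjusted p under 0.05). Without adjustment, a p under 0.05 was reached by 3 of them, Pkp2, Pkp4 and Pkp1, against 4.91% of all genes. In 2 genes, Pkp2 and Pkp4, the lowest mutant exceeded the highest control. The share of all genes that were separated in that direction was 0.963%, and in the other 1.79%. Since the same comparison led to the choice of these genes, nothing is read from these shares. Of the differences 6 were positive and 4 negative, with a median of 0.01 on the log2 scale, beside -0.0096 for all genes. A difference at least as large in either direction was seen in 13 genes of the whole table, 9 higher and 4 lower in mutants. Pkp2 itself is among the 13, and so is Xist (3.26), which was high in 2 mutants only.

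**Figure D4:**
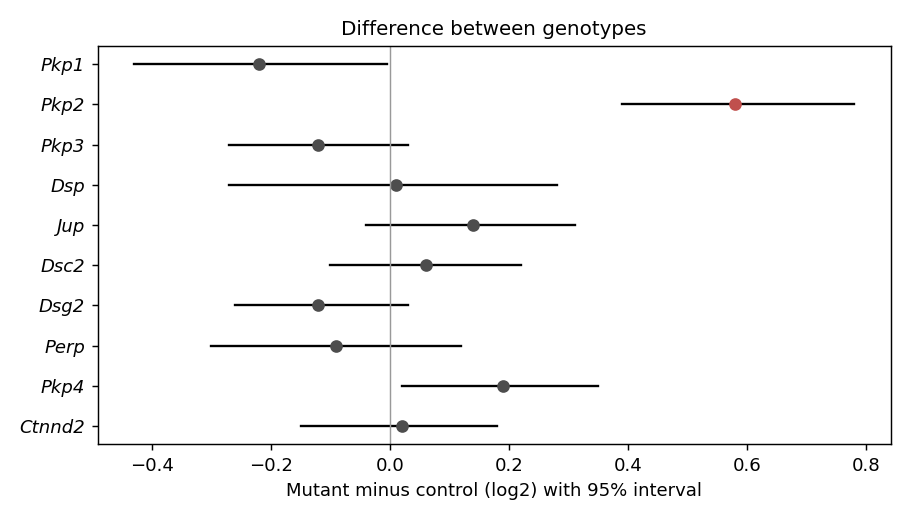
Log2 difference of mutant over control arrays (x axis) with its 95% interval for the 10 genes (y axis). Pkp2 (red) lies at 0.58, and the other 9 differences lie between -0.22 and 0.19.

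Other junction genes were examined to see whether the surroundings of Pkp2 moved too. Of 102 tested genes in 6 lists, 0 passed the threshold in either direction in limma. Over all genes 0.0502% were called higher and 0.015% lower, so a count of 0 is not read as a result. Lmo7 and Jam3, 2 of the 102, were at an unadjusted p under 0.05, against 4.91% of all genes tested. Groups did not overlap for Jam3, lower in mutants, and Erbin, higher in mutants, the second named after its values were seen. Over all genes 1.79% were so separated with mutants lower and 0.963% with mutants higher. The differences of the 102 genes ran from -0.26 to 0.21 with a median of 0.009. All lay nearer to 0 than that of Pkp2, which was chosen for its difference. Only 13 of the 19938 genes, Pkp2 included, lay as far from 0, so nothing is read from this. The 10 genes listed as other desmosome genes had a median of -0.004, with 5 positive and 5 negative, and not all encode established desmosome proteins. The cadherins Dsc3, Dsg1b, Dsg1c, Dsg3 and Dsg4 lay below the floor on every array. Evpl, the plaque protein envoplakin, averaged 5.43 ± 0.08 in mutants and 5.56 ± 0.04 in controls (SD, n = 4 each; difference -0.12 ± 0.06, SE). Dsc3, a desmocollin of stratified epithelia, differed by -0.16 ± 0.09 and Dsg4, a desmoglein of hair, by 0.11 ± 0.08.

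Genes listed with the intercalated disc, the junction between heart muscle cells, had a median of 0.033 over 12 genes, and not all encode proteins of the disc. Desmin (Des), the filament that desmoplakin holds there, was below the floor on all arrays, as were Ctnna3 and Xirp2. The smallest p in that list belonged to Xirp2 (-0.26 ± 0.12, SE), Tmem43 (0.14 ± 0.07) and Nrap (-0.14 ± 0.08), where Tmem43 is a nuclear envelope protein and Xirp2 and Nrap are actin-binding proteins of muscle. The adherens junction and p120 list had a median of 0.003 over 25 genes, of which 24 lay above the floor on every array. Lmo7, a LIM-domain protein of adherens junctions, averaged 7.20 ± 0.12 in mutants and 7.40 ± 0.14 in controls (SD, n = 4 each), a difference of -0.20 ± 0.09 (SE; adjusted p = 0.99 in limma). Cdh4, or R-cadherin, differed by 0.15 ± 0.08 and Nectin4, an immunoglobulin-like adhesion protein, by 0.11 ± 0.07.

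Tight and gap junction genes had a median of -0.003 over 21 genes, with Jam3, an adhesion protein of tight junctions, at -0.17 ± 0.08 (SE), Gja5, a connexin of arteries, at -0.14 ± 0.10 and Cldn11, the claudin of myelin, at -0.12 ± 0.08. Keratins and vimentin had a median of 0.000 over 14 genes. Krt15, Krt7 and Krt4, keratins of epithelia, differed by -0.24 ± 0.13, -0.16 ± 0.09 and 0.09 ± 0.09. Genes of desmosome assembly and turnover, all 20 above the floor on every array, had a median of 0.012. Flot2, a membrane scaffold, differed by 0.09 ± 0.07, Prkcd, a protein kinase C, by 0.09 ± 0.08 and Kazn, which binds periplakin, by 0.07 ± 0.07.

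**Figure D5:**
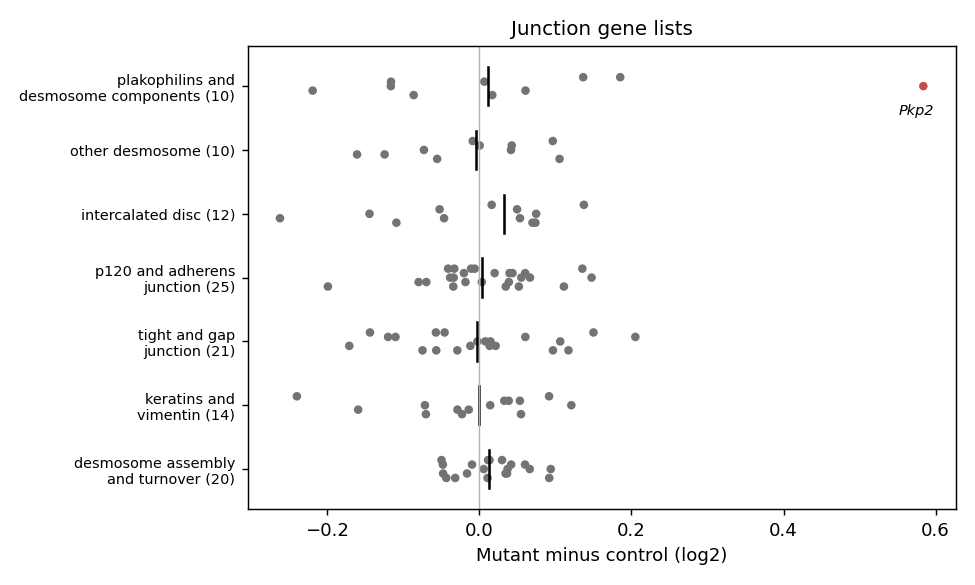
Log2 difference of mutant over control arrays (x axis) for the 10 genes (top row, Ctnnd2 included) and for 6 lists of other junction genes (y axis, number of genes in parentheses), each point a gene and each black bar a median. Pkp2 (red), chosen for its difference, lies at 0.58, and every gene of the other lists lies between -0.26 and 0.21.

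Markers of cell types that carry desmosomes or could have been captured with the cortex were read beside Pkp2. Epithelial markers summed to 343 to 376 in mutants and 341 to 367 in controls (linear signal over 16 genes), 0 passed in limma or at an unadjusted p under 0.05, and Epcam, Krt14, Esrp1, Grhl2, Ovol1 and Cldn7 were below the floor on every array. Choroid plexus and ependymal markers summed to 177 to 188 in mutants and 176 to 187 in controls over 11 genes, with Ttr among the 7 below the floor throughout. Meningeal fibroblast markers summed to 1363 to 1525 in mutants and 1310 to 1526 in controls over 17 genes. Of their differences 13 were negative and 4 positive. Among the 19 genes of other tissues used for the higher mark, 17 were negative and 2 positive, so nothing is read from these signs. Lum, Ogn, Slc6a13, Aldh1a2, Foxd1 and Tbx18 lay below the floor throughout. Nnat, which neurons also make, carried most of the meningeal sum. Without it, a step added after its values were seen, the other 16 genes summed to 422 to 458 in mutants and 421 to 565 in controls. Of these marker genes 0 passed the threshold in limma, against 0.0502% of all genes called higher and 0.015% called lower. At an unadjusted p under 0.05 were 2 meningeal genes, Foxc1 (0.24 ± 0.08, SE) and Dcn (-0.55 ± 0.25), and 1 choroid gene, Sostdc1 (-0.16 ± 0.07). Of all genes 4.91% were. The groups did not overlap for Foxc1, higher in mutants (0.963% of all genes), nor for Sostdc1 and Folr1, lower in mutants (1.79% of all genes). These genes were named after their values were seen.

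Cardiac muscle markers did separate mutants and controls, with sums of 613 to 649 in mutants and 491 to 579 in controls over 12 genes. That sum was carried by Ryr2, a calcium release channel that neurons also make, which averaged 8.64 ± 0.08 in mutants and 8.19 ± 0.19 in controls (SD, n = 4 each; difference 0.45 ± 0.09, SE; adjusted p = 0.304 in limma). Without Ryr2, left out after its values were seen, the sums were 222 to 248 in mutants and 229 to 249 in controls. Myh6, Nppa, Nppb, Ttn and Pln lay below the floor on every array. Endothelial markers summed to 1269 to 1459 in mutants and 1324 to 1370 in controls over 15 genes, and mural markers to 707 to 858 in mutants and 747 to 822 in controls over 11 genes, with the groups overlapping in both. Astrocyte markers summed to 2840 to 3421 in mutants and 3000 to 3296 in controls over 12 genes, oligodendrocyte lineage markers to 904 to 1050 in mutants and 898 to 1017 in controls over 11 genes, and microglia markers to 273 to 310 in mutants and 278 to 337 in controls over 11 genes. In the lists of this paragraph Ryr2, Myh6 (-0.27 ± 0.11, SE), Cnp (0.23 ± 0.07), Bcas1 (0.24 ± 0.07) and P2ry12 (-0.27 ± 0.10) were at an unadjusted p under 0.05 in limma. Of all genes 4.91% were. Groups did not overlap for Ryr2, Cnp and Bcas1, higher in mutants (0.963% of all genes), and Gfap, lower in mutants (1.79%). These genes were named after their values were seen, and Bcas1 lay below the floor on every array. The part of any of these cell types in the Pkp2 difference was not tested.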

How the data were processed

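The authors deposited log2 values for 35556 probe sets on 8 arrays, and per the labels' design text these came from BRB-ArrayTools. How background was corrected, arrays normalized and probes summarized is not stated in the labels. The log2 scale was read from the values, which reach 13.63, and array medians lay between 4.94 and 5.01. Array number limits the precision.

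Probe sets were named from the platform annotation, with symbols updated by Entrez identifier to GRCm38.p6 (21698 of 21789 matched). Of several probe sets per gene the one with the highest mean was kept. Mutant and control arrays were compared in limma 3.58.1 (R 4.3.3; lmFit, eBayes, genotype only, two-sided) over all 19938 genes without a filter, with Benjamini-Hochberg adjustment and a threshold of 0.05. The fit was tested on simulated data. Pups are separate animals and replicate numbers were not taken as pairs.

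Members and lists were chosen with earlier results of these data known. Named were all 10 members and, per junction list, genes past the threshold and the 3 of smallest p. Not analysed here for want of a single-gene probe set were some listed genes, such as Dsc1. Alternatives covered normalization, filters, priors, weights, a block, probe-set choice, a Y-linked covariate, left-out arrays and other floors.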

Additional observations from a re-analysis of the deposited data

How the results depend on the processing

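The Pkp2 difference kept its direction in all 19 alternatives that gave a value and passed the threshold in 4 of them, with a trend in the prior, a robust prior, probe sets averaged per gene, and without control replicate 3. It was 0.61 after quantile normalization, 0.60 after median centring, 0.61 after cyclic loess, 0.56 with array weights, 0.58 with every probe set as a row, and 0.67 with a Y-linked covariate or without mutant replicates 1 and 4 (limma adjusted p = 0.0504 to 0.313). In these fits, and in both filters on dim genes, which removed Pkp2, 0 of the 10 genes passed, against 1 as reported. With the replicate number as a block the Pkp2 difference was 0.58 (adjusted p = 0.0894 in limma), 0 of the 10 genes passed, and 5 genes passed over the whole table against 13. Arrays of the same number did not deviate together throughout, with correlations of -0.0122 to 0.159, so the numbers were treated as names. Counted over every gene, 4 passed with the Y-linked covariate and 2 without mutant replicates 1 and 4. Leaving out 1 array gave Pkp2 differences of 0.53 to 0.67, 0 to 1 of the 10 genes passed, and 3 to 13 genes passed over the whole table. In these fits the median difference of the other 9 genes lay between -0.081 and 0.018, against 0.006 with all arrays. Members above the floor on every array numbered 6, against 7 with a mark of vomeronasal receptor genes, 4 with the 99th percentile of olfactory receptor genes and 3 with the mark of the other-tissue genes. In 0 of the 21 alternatives did any other junction gene that was tested pass in limma, where the filters on dim genes tested 82 and 57 of the 102. At an unadjusted p under 0.05 were 2 as reported. Signal near the floor limits what can be said of Pkp1, Pkp2, Pkp3, Dsp, Dsc2, Dsg2 and Perp, and the causes of the lost calls were not tested.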

Other observations

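Pkp2 and Bcl6 both lie on chromosome 16 of the mouse, and every pup of either group carried the floxed Bcl6 alleles. In the gene order of GRCm38.p6, 128 tested genes lie between them. None of these 128 passed the threshold in limma, against 0.0502% of all genes called higher and 0.015% called lower. An unadjusted p under 0.05 was found for 10 of the 128, against 4.91% of all genes tested, and 6 had groups that do not overlap, where over all genes 0.963% did so with mutants higher and 1.79% with mutants lower. The median difference of the 128 was 0.001 on the log2 scale, with the extremes at Olfr164 (-0.36) and St6gal1 (0.20). The 10 tested genes on each side of Pkp2 had a median of -0.005, with 0 past the threshold in limma, 2 at an unadjusted p under 0.05, 1 with groups that do not overlap, and extremes of -0.25 (Snai2) and 0.21 (A630010A05Rik). The extremes were named after their values were seen. What these genes share with Pkp2 in their control was not tested.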
